A study of Mus musculus with 20 samples.

Results

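The 4 arrays described here measured RNA of mouse marrow cells in culture at the collection point named D1, either with interleukin 6 (IL-6) or without it. They were chosen by their titles alone, as the 2 arrays titled D1-IL6 and the 2 titled D1-Control, out of 20 arrays in the series. All 4 cultures started from marrow cells of female wild-type C57BL/6 mice, labelled healthy, from which cells bearing mature lineage markers had been removed. The cells grew in serum-containing medium with erythropoietin, insulin and holo-transferrin. Recombinant mouse IL-6 at 100 ng/mL was present from the start in the D1-IL6 cultures and was not added to the D1-Control cultures. The labels give neither the age of these mice nor the hours that D1 and D2 stand for. The series states that 2 mice supplied the cultured cells, but no label ties an array to a mouse, so the p-values below measure the spread between these arrays. The same culture with and without IL-6 at D2, also with 2 arrays a group, serves for comparison, and 6 arrays of erythroblasts from 1-year-old double wild-type mice (DWT) at stages I, II+III and IV serve as a reference for levels.

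IL-6 is a cytokine made by many cell types in inflammation. It binds its receptor chain (Il6ra) and the shared signal chain gp130 (Il6st), which activates JAK kinases and the transcription factor STAT3. In marrow it is known for promoting granulocyte and monocyte formation and for the acute-phase response. Erythropoietin acts through its own receptor, JAK2 and STAT5 and drives red cell precursors to survive and mature.

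At D1 the cultures with IL-6 differed from their controls in 10 genes by the fit of the 8 cultured arrays. That number depended on the arrays fitted: it was 9 with only the 4 D1 arrays and 0 with all 20 arrays. Higher with IL-6 were Lcn2 and Hp, which encode the iron-sequestering and haemoglobin-binding acute-phase proteins lipocalin 2 and haptoglobin, together with the granule protease gene Prtn3, the protease inhibitor gene Spint1, the matrix gene Vcan, the secreted-protein gene Dmkn, the flippase gene Atp11a, the glucose transporter gene Slc2a1 and the receptor gene Il4ra. Axl, a receptor tyrosine kinase gene, was the 1 gene that was lower. The genes that rose did so by 2.83-fold (Slc2a1) to 21.1-fold (Lcn2) as fitted. No gene of haem synthesis, of the red cell membrane or among the erythroid regulators passed.

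These 10 genes were 0.0511% of the 19572 probe sets tested with limma at a Benjamini-Hochberg adjusted p under 0.05, with 9 higher (0.046%) and 1 lower (0.00511%). An unadjusted p under 0.05 was found for 554 probe sets (2.83%), where 978.6 would be the number with no effect at all. In a limma fit of the 4 D1 arrays alone it was found for 1139, so this count depends on which arrays share the spread. The median log2 fold change over all genes was 0.00. Of 7564 genes above background in both arrays of at least 1 group, 78 differed by more than 2-fold upward and 18 downward. Without a test, the 2 arrays of each group did not overlap for 17.8% of 19505 genes in the higher direction and for 16.8% in the lower direction. A lack of overlap is therefore common here and is given below only as a description.

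The 250 bases before the annotated start are shown for 5 of the 10 genes, the first in order of p-value that have an entry in the RefSeq promoter table (mouse build GRCm38.p6), because they are the genomic context of the transcripts that changed. Capitals mark matches, on either strand, to 4 short motifs chosen for the factors of this setting. The STAT motif was TTCNNNGAA, and that for C/EBP factors was TTGCNNAA. For erythroid GATA factors the letters AGATAA were searched. For the myeloid factor PU.1 they were GAGGAAG. No motif contains another. Each sequence runs 5′ to 3′ in the direction of the gene and ends at the base before its start.
Lcn2, chr2:32387740-32387989, minus strand: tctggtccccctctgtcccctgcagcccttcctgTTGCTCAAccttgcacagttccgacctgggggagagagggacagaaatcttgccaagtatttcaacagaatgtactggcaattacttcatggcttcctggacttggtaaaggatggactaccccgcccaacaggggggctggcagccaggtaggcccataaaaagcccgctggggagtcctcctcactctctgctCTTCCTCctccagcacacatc
Spint1, chr2:119237110-119237359, plus strand: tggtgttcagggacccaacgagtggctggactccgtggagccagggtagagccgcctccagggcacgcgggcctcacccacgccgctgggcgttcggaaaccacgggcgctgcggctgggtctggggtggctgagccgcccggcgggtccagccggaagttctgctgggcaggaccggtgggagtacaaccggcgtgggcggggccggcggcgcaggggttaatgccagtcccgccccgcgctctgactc
Slc2a1, chr4:119108495-119108744, plus strand: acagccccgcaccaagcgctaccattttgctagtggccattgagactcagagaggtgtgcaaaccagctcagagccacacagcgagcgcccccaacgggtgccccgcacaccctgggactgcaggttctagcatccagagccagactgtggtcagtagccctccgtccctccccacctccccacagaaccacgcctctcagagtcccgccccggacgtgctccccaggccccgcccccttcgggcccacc
Prtn3, chr10:79879417-79879666, plus strand: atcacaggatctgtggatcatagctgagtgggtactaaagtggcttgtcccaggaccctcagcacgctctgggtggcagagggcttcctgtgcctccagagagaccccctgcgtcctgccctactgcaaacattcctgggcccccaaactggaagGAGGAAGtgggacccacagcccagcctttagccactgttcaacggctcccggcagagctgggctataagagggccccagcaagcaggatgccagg
Axl, chr7:25788734-25788983, minus strand: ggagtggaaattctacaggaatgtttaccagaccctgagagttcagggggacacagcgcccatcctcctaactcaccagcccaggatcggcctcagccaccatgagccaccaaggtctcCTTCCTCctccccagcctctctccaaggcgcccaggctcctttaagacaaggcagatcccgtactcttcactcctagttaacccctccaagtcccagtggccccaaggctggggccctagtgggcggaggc
The Lcn2 window held a C/EBP match beginning 216 bases before the start and a PU.1 match at 21 bases. The Prtn3 window held a PU.1 match at 95 bases and the Axl window one at 131 bases. The Spint1 and Slc2a1 windows held none of the 4 motifs, and 72.8% and 66.4% of their bases were G or C, against a median of 52.4% over all windows. Of the 10 genes, 9 had an entry, and none of these 9 held the STAT or the GATA motif, while 2 held the C/EBP motif (Lcn2 and Dmkn) and 3 the PU.1 motif. Among all 32851 promoter windows of this length, 7.02% held the STAT motif, 9.56% the C/EBP motif, 9.99% the GATA motif and 10.6% the PU.1 motif. The files' genome build is not given in the sources used here, so these coordinates belong to the RefSeq table, and a match is a run of letters and not a measured binding site.

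Values below are log2 signals, so that 1 unit is 2-fold, and they are given per array as replicate 1 and replicate 2 of each group. Background, the 95th percentile of the background probe sets of an array, lay at 7.61 to 7.62 in the 4 arrays, and 38.6% to 39.1% of named probe sets lay above it. Arrays of a group correlated across genes at r = 0.993 (control) and r = 0.9935 (IL-6). The arrays of each D2 group, which also enter the estimate of spread, correlated at r = 0.982. The pair formed by D1-Control replicate 2 and D1-IL6 replicate 2 correlated at r = 0.9936, so that array was no closer to its own group than to the treated one. A 2-fold difference separated the control arrays from each other for 167 genes above background and the IL-6 arrays for 91. Erythroid genes were present: all 17 measured red cell membrane genes and all 20 erythroid regulators lay above background in every D1 array. Adult globin genes were not among the 3 globin genes measured, and those 3 were near background. Markers of other marrow cells were present as well: 15 or 16 of 17 monocyte genes and 9 of 12 primary granule genes lay above background in each D1 array.

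The acute-phase genes were led by Lcn2, whose product binds bacterial iron carriers. Lcn2 read 4.83 and 5.09 in the control arrays and 9.29 and 9.42 with IL-6, a log2 fold change of 4.40 ± 0.28 (SE, n = 2 arrays a group, limma adjusted p = 0.000295). Both controls were near background, so the measured part of the change is a log2 difference of at least 1.74. Hp read 8.72 and 9.42 in control arrays and 11.81 and 11.72 with IL-6, 2.69 ± 0.32 (limma adjusted p = 0.0212). In both genes the lower IL-6 array lay more than 2 log2 units above the higher control array. Of 26 acute-phase genes measured, these 2 rose and none fell, and 4 were above background, the other two being the metallothionein genes Mt1 (-0.06) and Mt2 (-0.56). The liver products of the list, among them Crp, Fga, Fgb, Fgg, Saa1, Saa2 and Hamp, stayed near background. The median over the 26 genes was -0.01, against 0.00 over all genes.

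Spint1 encodes a membrane-bound inhibitor of serine proteases of the Kunitz type. Its arrays read 8.68 and 8.18 without IL-6 and 12.60 and 12.89 with it, 4.31 ± 0.36 (limma adjusted p = 0.00186), a 19.9-fold difference with both groups above background. The IL-6 arrays stood nearly 4 log2 units above the higher control. The other 9 measured inhibitors and partner proteases, such as Spint2, St14, Hpn and Tfpi, were near background and ranged from -0.25 to 0.33.

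Prtn3 encodes proteinase 3, a serine protease of primary (azurophil) granules. It read 11.33 and 12.04 in controls and 14.18 and 14.10 with IL-6, 2.46 ± 0.27 (limma adjusted p = 0.0147), and the groups did not overlap. It was the 1 of 12 primary granule and granulocyte progenitor genes that rose, and none fell. The rest of the list is given here by values: Ms4a3, a gene of granulocyte-monocyte progenitors, read 8.61 and 10.59 against 11.93 and 12.31 (2.52, adjusted p = 0.494). Ctsg (cathepsin G) read 10.43 and 11.21 against 12.59 and 12.53 (1.74, adjusted p = 0.384). Mpo (myeloperoxidase) read 14.37 and 15.29 against 15.94 and 16.01 (1.14, adjusted p = 0.548). In these 3 genes D1-Control replicate 1 was the lowest array. The median of the 12 genes was 0.66, with 7 whose groups did not overlap in the higher direction (17.8% of all genes) and 1 in the lower. Leaving out each array in turn gave list medians of 0.48 to 0.86.

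Among secondary granule and mature neutrophil genes, which include Lcn2, 1 of 16 rose and none fell. Mmp8, neutrophil collagenase, read 11.18 and 12.66 in controls and 13.87 and 14.04 with IL-6 (2.04, adjusted p = 0.377). S100a8, a calprotectin subunit, read 8.40 and 9.54 against 9.15 and 10.48, so the groups overlapped. Ngp, another granule protein gene, read 9.0 and 10.61 against 8.59 and 9.81, also overlapping. The list's median of 0.33 became 0.09 when D1-Control replicate 1 was left out and 0.67 when replicate 2 was. Cebpe, the transcription factor of granule formation, was near background in all 4 arrays (4.41 and 4.58 against 4.03 and 4.46).

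None of 17 monocyte genes passed at D1. Tgfbi, an extracellular adhesion protein gene, read 10.49 and 10.93 against 12.62 and 13.23 (2.21, adjusted p = 0.0797). Ms4a6d read 8.16 and 9.45 in controls and 10.96 or more in both IL-6 arrays (2.17, adjusted p = 0.367). F13a1, the coagulation factor XIII A chain, read 8.83 and 9.68 against 10.25 and 11.04 (1.39). Csf1r, which encodes the M-CSF receptor of the macrophage lineage, was close in all arrays, at 11.84 and 12.23 against 12.30 and 12.42 (0.33), and the lysozyme gene Lyz2 overlapped (14.08 and 14.46 against 14.13 and 14.17). Over the list, 9 genes did not overlap in the higher direction (17.8% of all genes) and 2 in the lower (16.8%). The median was 0.45, or 0.14 when D1-Control replicate 1 was left out and 0.85 when replicate 2 was. The mean of the 17 genes was 10.81 and 11.41 in the control arrays and 11.60 and 11.83 in the IL-6 arrays. The means of the 12 primary granule genes followed the same order, at 9.29 and 9.89 against 10.38 and 10.51. These marker levels were higher with IL-6, as were Lcn2, Prtn3 and Hp. Prtn3 is itself 1 of the 12 primary granule genes, and the lists were chosen with earlier results known. The part of the markers in the results of Lcn2, Prtn3 and Hp was not tested. In bulk RNA, more cells of a type and more RNA per cell cannot be told apart.

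**Figure D1:**
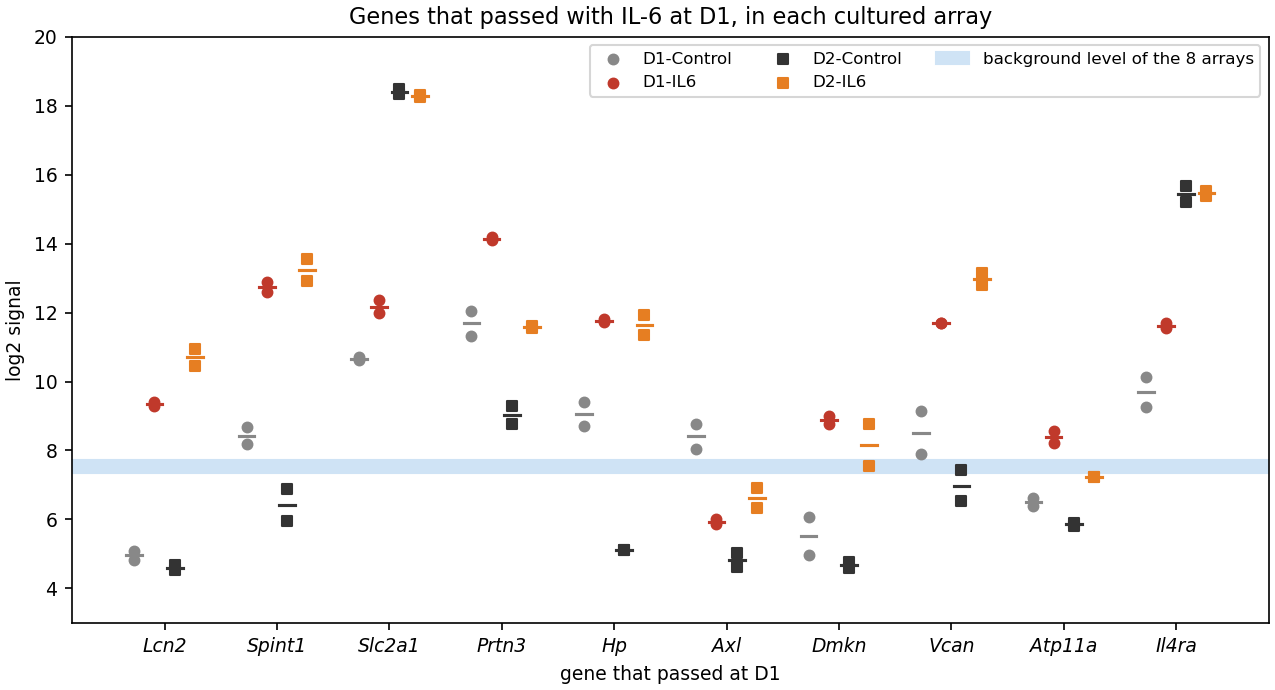
Log2 signal of the 10 genes that passed, with 1 point per array of the 8 cultured arrays (circles D1, squares D2), a short bar at each group's mean and a band over the arrays' background levels. At D1 the IL-6 arrays lie above both control arrays in 9 genes and below them in Axl, while the D1-Control arrays of Lcn2, Dmkn and Atp11a and the D1-IL6 arrays of Axl lie under background.

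Axl encodes a receptor tyrosine kinase of the TAM family, which binds Gas6 and protein S and is known for clearance of dying cells. It read 8.04 and 8.77 in controls and 6.00 and 5.87 with IL-6, and so fell by 2.47 on the log2 scale (SE 0.32, limma adjusted p = 0.0364). Both IL-6 arrays were near background, and the bound on the change against that level is -0.78. The call was lost when any 1 of the 4 arrays was left out. The other receptors of the family were near background: Mertk read 6.36 and 6.65 against 6.25 and 6.64, and Tyro3 read 6.39 and 5.99 against 6.00 and 5.77. The ligand gene Pros1 (protein S) read 7.55 and 6.86 against 7.81 and 8.08 (0.74, adjusted p = 1). Axl also stands in the list of resident macrophage genes, where it was the 1 of 17 that fell and none rose, and the list's median was -0.07.

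Vcan, Dmkn and Atp11a are genes of the cell's surroundings and surface. Vcan encodes versican, a large proteoglycan that binds hyaluronan, and read 7.89 and 9.13 in controls and 11.69 and 11.70 with IL-6, 3.18 ± 0.42 (limma adjusted p = 0.0364). Dmkn, which encodes the secreted protein dermokine, read 4.96 and 6.06 against 9.0 and 8.77, 3.37 ± 0.44 (limma adjusted p = 0.0364), or at least 1.27 because both controls were near background. Atp11a encodes a flippase, which moves phospholipids to the inner leaflet of the membrane. It read 6.62 and 6.38 against 8.57 and 8.23, 1.90 ± 0.26 (limma adjusted p = 0.0453), or at least 0.79. None of the 3 genes overlapped between groups, but of the 4 fits that left out 1 array, Vcan and Dmkn passed in 1 and Atp11a in none. Vcan was the 1 of 16 hyaluronan and matrix genes that rose, and the hyaluronan receptor gene Cd44 was level at 11.13 and 11.42 against 11.36 and 11.32. Atp11a was the 1 of 15 flippase and partner genes that rose, with a list median of 0.14. Its relative Atp8b4 read 11.06 and 11.46 against 12.24 and 12.02 (0.86, adjusted p = 1).

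Slc2a1 encodes GLUT1, the glucose transporter of red cell precursors and many growing cells. It read 10.71 and 10.62 in controls and 12.35 and 11.99 with IL-6, 1.5 ± 0.13 (limma adjusted p = 0.00225), and it kept the call when each array was left out in turn but not in a fit of the 4 D1 arrays alone (limma adjusted p = 0.0689). It was the 1 of 26 glucose transport and glycolysis genes that rose, and none fell. By value, the enzyme gene Pgam1 read 10.47 and 11.06 against 11.93 and 11.82 (1.11, adjusted p = 1). The pyruvate kinase gene Pkm read 11.55 and 12.16 against 12.91 and 12.78 (0.99, adjusted p = 0.869), whereas Pklr, the pyruvate kinase of mature red cells and liver, read 8.60 and 9.18 against 8.37 and 8.41 (-0.49). The list's median was 0.10, with 8 genes not overlapping in the higher direction (17.8% of all genes) and 4 in the lower (16.8%). Of 16 hypoxia genes, which include Slc2a1, 1 rose, and Hif1a read 9.89 and 10.82 against 10.96 and 11.13 (0.69, adjusted p = 1).

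Il4ra encodes the receptor chain shared by interleukins 4 and 13 and is a known target of STAT3. It read 10.13 and 9.27 in controls and 11.69 and 11.54 with IL-6, 1.91 ± 0.27 (limma adjusted p = 0.0453), with no overlap. Of 21 STAT3 feedback and target genes it was the 1 that rose, and none fell. Socs3, the inhibitor that STAT3 induces to end IL-6 signalling, was near background in all 4 arrays (4.95 and 5.13 against 5.0 and 4.95). Bcl3, a nuclear regulator of NF-kB, read 6.23 and 6.18 against 7.92 and 7.42 (1.46, adjusted p = 0.367), and 1 of its 4 arrays was above background. Fos, an immediate-early transcription factor gene, read 9.88 and 9.93 against 9.32 and 9.13 (-0.68, adjusted p = 1). The median of the 21 genes was 0.17. Among 28 cytokine receptor genes, 1 (Il4ra) rose and none fell, with Csf2rb, the shared chain of the interleukin 3 and granulocyte-macrophage factor receptors, at 10.35 and 11.16 in controls and 11.71 or more in both IL-6 arrays (1.10, adjusted p = 1) and Il7r at 9.47 and 9.91 against 8.89 and 9.03 (-0.73, adjusted p = 1).

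The receptor and signalling genes of IL-6 itself were all present, and none of the 12 measured passed. Il6ra read 11.14 and 11.67 in controls and 11.02 and 11.63 with IL-6, overlapping. Il6st read 10.81 and 11.37 against 11.45 and 11.89 (0.58, adjusted p = 1). Stat3 read 10.66 and 10.42 against 11.11 and 11.12 (0.57, adjusted p = 1). The groups did not overlap for Il6st or Stat3, but neither passed. The arrays within each D1 group of Stat3 differed by 0.24 or less. Its SE of 0.57 also took in the D2-Control arrays, at 7.94 and 10.12. Jak1 and Jak2 differed by -0.20 and -0.17, and the median of the 12 genes was -0.02.

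The erythroid programme gave no call. Of the 20 erythroid regulators none passed, with a median of -0.14 and a range of -0.29 to 0.04. By value 19 of the 20 were lower with IL-6, against 9618 of all 19505 genes. The groups did not overlap in the lower direction for 8 of the 20 (16.8% of all genes) and in the higher direction for 0 (17.8%). Gata1, the master regulator, read 11.28 and 11.33 against 11.04 and 11.54, Epor differed by -0.24 and Klf1 by -0.12. None of 13 haem synthesis genes passed (median -0.07), and 3 did not overlap in the lower direction and 2 in the higher. Alas2, the first enzyme of haem synthesis in red cells, read 16.03 and 16.07 against 16.12 and 15.97. None of 17 red cell membrane genes passed (median -0.07). By value 14 of the 17 were lower, and 5 did not overlap in the lower direction and 0 in the higher. Slc4a1, the band 3 anion exchanger, read 17.00 and 17.02 against 17.06 and 16.92, and Tfrc, the transferrin receptor, read 15.17 and 15.20 against 15.23 and 15.14. The largest difference in the membrane list was that of Sptb (beta spectrin), 14.26 and 14.11 against 13.80 and 13.75 (-0.41, adjusted p = 1). Of 16 iron handling genes 1 rose, which was Lcn2, and none of 14 erythropoietin response genes passed (median -0.11). Rps14, a ribosomal protein gene, differed by 0.03.

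**Figure D2:**
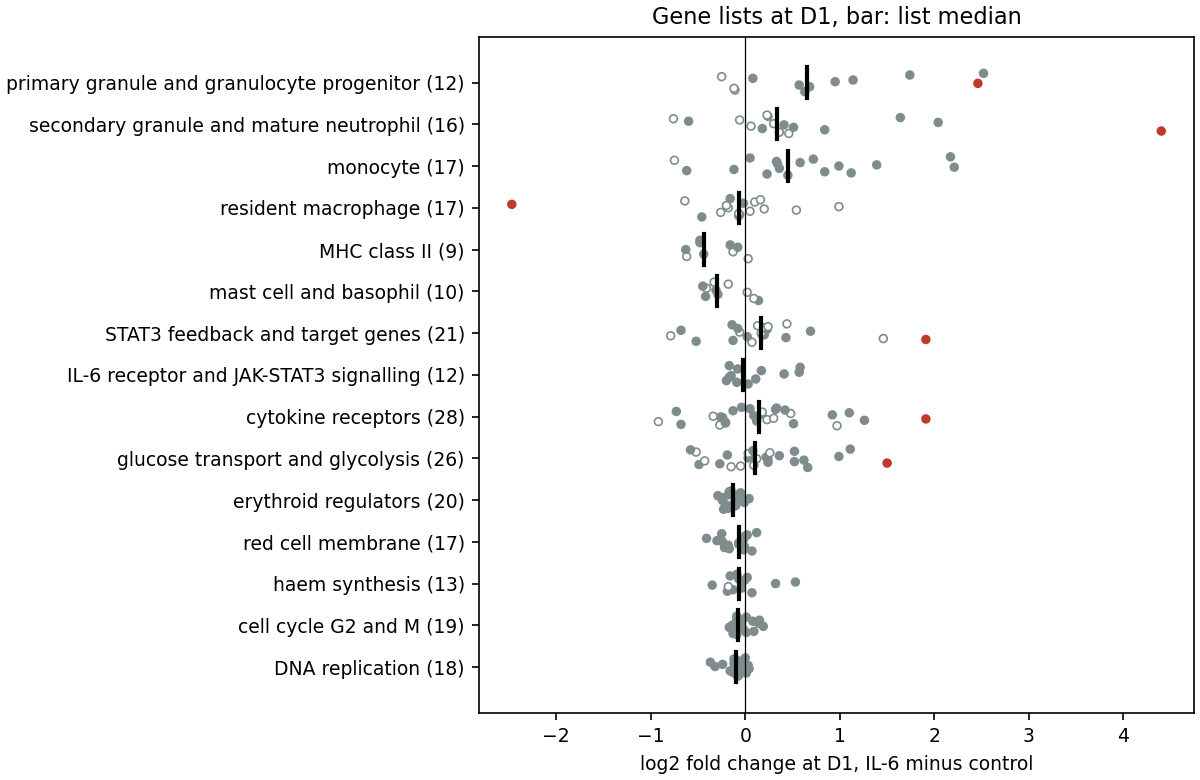
Log2 fold change at D1 (IL-6 minus control) of the measured members of 15 gene lists, with the number of members in brackets, 1 point per gene and a bar at the list median. Red points passed in the limma fit, open points were not above background in both arrays of either group, and the points of the erythroid, haem, membrane and cell cycle lists lie close to 0 while those of the granule and monocyte lists reach beyond 2.

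Genes of cell division and stress gave no call either. None of 19 G2 and M phase genes passed (median -0.08), none of 18 DNA replication genes (median -0.10) and none of 17 MYC and ribosome biogenesis genes (median 0.06). None of 16 unfolded protein and stress response genes passed, with Calr (calreticulin) at 0.48 and Atf3 at -0.63. None of 13 p53 and apoptosis genes passed (median -0.11), and none of 15 antioxidant genes (median 0.01), of which Gsr (glutathione reductase) read 11.93 and 12.31 against 12.57 and 12.83 (0.58, adjusted p = 1). Of 24 NF-kB and inflammatory genes none passed, and the inflammasome gene Nlrp3 read 8.50 and 8.01 against 7.42 and 7.33 (-0.88, adjusted p = 1). None of 17 interferon response genes passed (median -0.05).

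Genes of antigen-presenting and mast cell types lay lower with IL-6 by value, and none passed. The 9 MHC class II genes had a median of -0.44, with H2-Aa at 10.93 and 11.49 against 10.41 and 10.76 (-0.63, adjusted p = 1), and 4 of the 9 did not overlap in the lower direction (16.8% of all genes). Without D1-Control replicate 2 their median was -0.03. The 12 dendritic cell genes had a median of -0.32, and 6 did not overlap in the lower direction, but 4 of the 12 were above background. Without D1-IL6 replicate 1 the median was -0.20, and without D1-IL6 replicate 2 it was -0.51. Among the 4 Clec10a, a lectin gene, read 9.32 and 9.53 against 8.04 and 8.27 (-1.27, adjusted p = 0.869). The 10 mast cell and basophil genes had a median of -0.30, or 0.03 without D1-Control replicate 2, and the basophil protease gene Mcpt8 read 12.84 and 14.02 against 12.55 and 13.68, so that the arrays within a group differed more than the groups. B cell, T and NK cell, and stroma and endothelium markers were mostly near background, with 2 of 9, 2 of 11 and 1 of 12 genes above it.

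Of 19505 genes, 381 without a call lay higher with IL-6 and 421 lower by a rule on values alone. The rule asked for no overlap, a gap wider than the spread within either group and both arrays of the higher group above background. More genes met it in the lower direction, and how many would meet it with no effect was not tested. The 12 with the largest positive fold changes among the 381 are given as values without a call. Besides Ctsg, Tgfbi and Ms4a6d, they were led by Sirpb1c, a signal-regulatory protein gene of myeloid cells, at 5.24 and 6.63 against 8.36 and 8.77, 2.63 or at least 0.95 (adjusted p = 0.547). Nrg1, which encodes the growth factor neuregulin 1, read 7.14 and 7.43 against 9.01 and 10.29, at least 2.03 (adjusted p = 0.457). Ctsc encodes cathepsin C, the protease that activates the granule proteases, and read 9.36 and 10.29 against 12.09 and 12.15 (2.30, adjusted p = 0.0768). Sting1, the adaptor of cytosolic DNA sensing, read 6.65 and 7.79 against 9.26 and 9.47 (2.14, adjusted p = 0.293). A further 3 genes encode myeloid surface proteins and differed by 1.71 to 1.73: Trem3, Clec5a and Mcemp1. Ifitm1, an interferon-induced membrane protein gene, read 12.91 and 12.75 against 14.66 and 14.30 (1.66, adjusted p = 0.494). Wfdc21, a secreted whey acidic protein gene, read 8.32 and 8.57 against 9.75 and 10.42 (1.64, adjusted p = 0.715). The 8 lowest by the same rule were smaller in size, from -1.04 to -1.29: Cep41, Clec10a, Adcy9, Ldlrad4, Padi2, Phka2, Sh2d1b1 and Nkrf. Cep41, a centrosomal protein gene, read 10.47 and 10.51 against 9.0 and 9.41, and Adcy9, an adenylyl cyclase gene, read 8.61 and 8.07 against 7.09 and 7.25. Ctsc and Tgfbi passed when only genes above background were tested, with an adjusted p of 0.0151 each, which raised the number of passing genes to 12.

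**Figure D3:**
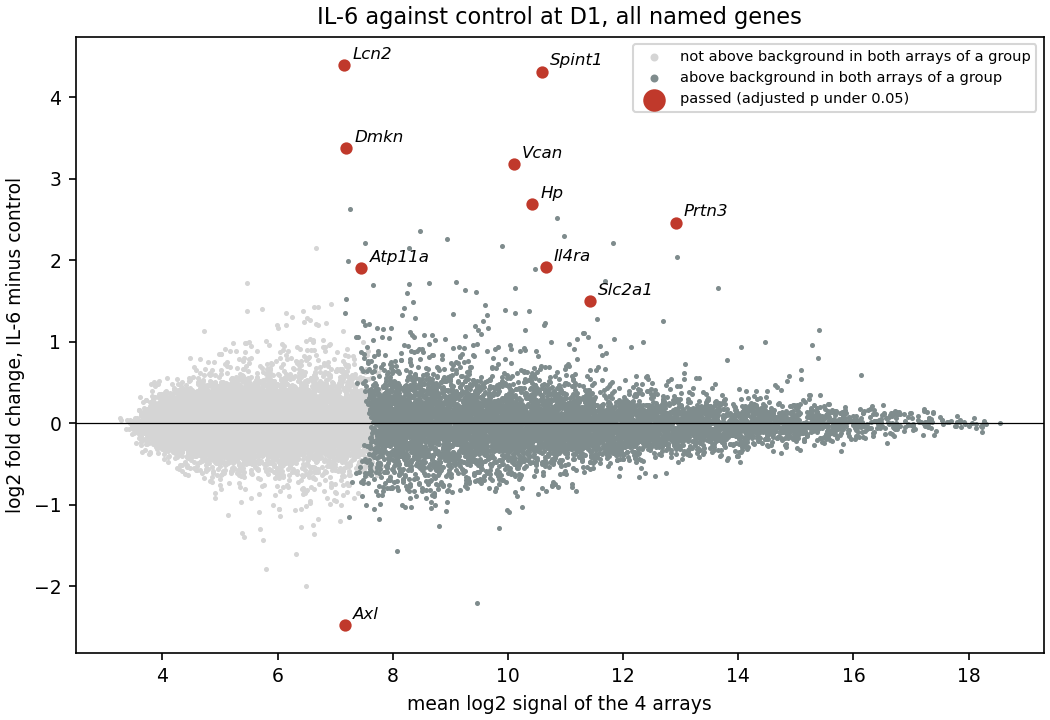
Log2 fold change at D1 (IL-6 minus control) against the mean log2 signal of the 4 arrays for all named genes, in a darker shade where both arrays of a group were above background, with the 10 that passed in red and labelled. Most genes lie within 1 log2 unit of 0, and the labelled genes lie above that band apart from Axl, which lies below it.

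The closest comparison in the series, IL-6 against control at D2, shares no array with that at D1, although the fit estimates 1 spread per gene from both. There, 648 probe sets passed (3.31%), of which 571 were higher and 77 lower. Of the 10 D1 genes, 8 passed at D2, of which 7 were higher with IL-6 as at D1 and Axl was higher where it had been lower. The 2 that did not pass were Slc2a1 and Il4ra. Both groups of Axl and of Atp11a were near background at D2, so neither has a measured size there. The difference between the changes at D2 and D1 was itself tested and passed for 232 probe sets (1.19%), 229 of them with the more positive change at D2, and for 5 of the 10 genes.

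Hp and Spint1 had larger changes at D2 than at D1. Hp read 5.11 and 5.11 in D2-Control and 11.93 and 11.36 in D2-IL6, so its control level was lower than at D1 while its level with IL-6 was much the same, and the change was larger by 3.85 ± 0.45 (limma adjusted p = 0.00161). Spint1 read 5.96 and 6.87 against 13.54 and 12.91, larger by 2.50 ± 0.51 (limma adjusted p = 0.045). Lcn2 (4.52 and 4.68 against 10.95 and 10.46) and Vcan (6.52 and 7.44 against 13.15 and 12.80) also had larger fitted changes at D2, by 1.72 ± 0.40 and 2.81 ± 0.59, which did not pass (limma adjusted p = 0.0979 and 0.0558). All the D2-Control arrays of these 4 genes were near background, so the sizes of these differences depend on values under it.

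Slc2a1 and Il4ra had smaller changes at D2. Slc2a1 read 18.48 and 18.33 in D2-Control and 18.30 and 18.25 in D2-IL6, so that its D1 difference of 1.5 was absent. The difference of the changes was -1.63 ± 0.19 (limma adjusted p = 0.00152). The highest signal of any probe set on the D2 arrays was 19.06 to 19.16, so Slc2a1 lay near the top of the scale there. Whether that hid a difference at D2 was not tested. Il4ra read 15.68 and 15.21 against 15.53 and 15.39, a difference of the changes of -1.89 ± 0.37 (limma adjusted p = 0.0401). For both genes the D2 levels without IL-6 lay above every D1 array. The change of Axl had the other sign at D2: it read 5.04 and 4.63 in D2-Control and 6.33 and 6.91 in D2-IL6, all near background, and the difference of the changes was 4.26 ± 0.46 (limma adjusted p = 0.00113). Prtn3 (9.28 and 8.77 against 11.55 and 11.61), Dmkn (4.77 and 4.58 against 8.78 and 7.54) and Atp11a (5.91 and 5.82 against 7.22 and 7.23) gave no call for the difference, which was 0.10 ± 0.39, 0.11 ± 0.63 and -0.54 ± 0.37.

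**Figure D4:**
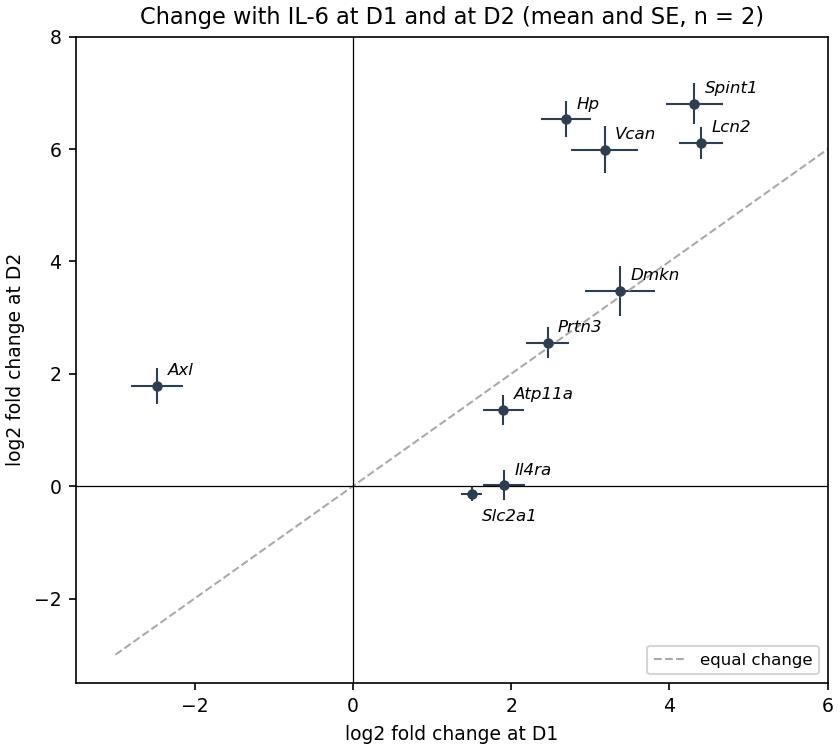
Log2 fold change with IL-6 at D2 against that at D1 for the 10 genes that passed at D1, with bars of 1 standard error from the limma fit and a line of equal change. Hp, Spint1, Lcn2 and Vcan lie above the line, Slc2a1 and Il4ra lie below it with D2 values near 0, and Axl has a negative value at D1 and a positive one at D2.

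Among the gene lists, the monocyte genes showed the largest contrast of medians between the time points. The lists were chosen with earlier results of these data known, so this ranking is only a description. At D2, 16 of the 17 rose, 1 (Cx3cr1) fell, and the median was 5.32, against none and 0.45 at D1. Over all 19572 probe sets, 3.31% passed at D2, 571 of them higher. The control levels differed most between the points: the mean of the 17 genes was 7.34 and 7.06 in D2-Control, compared with 10.81 and 11.41 in D1-Control, while the IL-6 arrays read 12.20 and 12.02 at D2 and 11.60 and 11.83 at D1. Of the 16 secondary granule genes 6 rose at D2, and of the 9 MHC class II genes 5 rose, with a median of 1.35 against -0.44 at D1. Many of these genes were near background in D2-Control. In its replicates 1 and 2, 9 and 5 monocyte genes, 1 and 0 secondary granule genes and 6 and 2 MHC class II genes lay above it. The sizes of the D2 changes thus depend in part on values under it. The DNA replication genes, none of which passed at either point, had means of 14.24 and 14.05 in D1-Control and 11.56 and 11.49 in D2-Control.

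Levels in freshly isolated DWT erythroblasts place the D1 values beside those of cells in the animal, with no test between the sets because culture and tissue cannot be told apart from other differences. Lcn2 read 17.58 and 17.74 at stage I and 8.83 and 11.84 at stage IV, so it was high at the first stage without added IL-6. Prtn3 and Hp had the same order, at 16.48 and 16.16 (Prtn3) and 14.88 and 14.78 (Hp) at stage I and 10.06 and 11.07 (Prtn3) and 8.76 and 9.79 (Hp) at stage IV. Markers of other cells followed that order: S100a8 read 17.92 and 18.07 at stage I and 9.07 and 11.79 at stage IV, and Mpo 17.66 and 17.57 against 13.15 and 14.08. The erythroid genes Klf1 (11.87 and 11.52, then 15.04 and 14.79) and Tfrc (11.78 and 11.32, then 15.13 and 14.86) had the opposite order. The part of these markers in the levels of Lcn2, Prtn3 and Hp was not tested. The stage I arrays thus held high signal of granulocyte genes beside that of the erythroid genes Alas2 (16.87 and 17.16) and Slc4a1 (16.47 and 16.42). Which cells carried Lcn2 at stage I was not tested, so its level there is not assigned to erythroblasts. Spint1 was near background in all 6 DWT arrays (5.46 to 6.27), unlike the cultured D1 arrays, of which all 4 were above it. Axl was above background in all 6, from 8.98 to 11.67.

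The calls were few, and 7 of the 10 passed in at most 1 of the 4 fits that each left out 1 array. Lcn2 and Slc2a1 passed whichever array was left out, although Slc2a1 lost its call with only the 4 D1 arrays (limma adjusted p = 0.0689) and without the intensity trend (0.142), where Lcn2 did not. With only those 4 arrays Atp11a (0.0617) and Il4ra (0.126) were lost too, so that 9 genes passed, 7 of them among the 10. Spint1 was lost without D1-IL6 replicate 2. Prtn3, Hp, Dmkn and Vcan passed only without D1-Control replicate 2, Il4ra only without D1-Control replicate 1, and Axl and Atp11a in none of these 4 fits. The number passing was 4 without D1-Control replicate 1, 12 without D1-Control replicate 2, 3 without D1-IL6 replicate 1 and 2 without D1-IL6 replicate 2. With all 20 arrays in 1 limma fit no gene passed (209 had an unadjusted p under 0.05), and without the intensity trend 2 did. The 10 genes kept the sign of their change in these fits and in the other settings tried, and with 2 arrays a group an exact permutation test of a single gene could not go below p = 0.333.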

How the data were processed

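The authors deposited log2 signals from robust multi-array average (RMA), computed with Affymetrix Expression Console per the submitters' processing notes (versions not given). Whether all 20 arrays were normalized together is not given in the sources used here. RNA inputs of 700 pg were amplified with a Pico kit, per the labels' protocols. A single gene symbol was carried by 19572 probe sets (19505 genes; for 55 genes with several, the brightest carries the name), and 2634 transcript probe sets without a symbol were tested only in an alternative. Near background means under the 95th percentile of the 23 background probe sets of an array; "at least" or a bound sets the bright group's mean against that level. Comparisons used lmFit and eBayes of limma 3.58.1 (R 4.3.3), with the variance prior following intensity, over the 8 cultured arrays, with 4 residual and 6.41 prior degrees of freedom. All tests were 2-sided, and the Benjamini-Hochberg adjustment ran over the 19572 probe sets, with passing at an adjusted p under 0.05. The computation was tested on simulated data. Precision is limited by the number of arrays, and there is no read depth behind an array signal.

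The genes named are those that passed, the 12 highest and 8 lowest of the others by the rule stated with them, up to 4 members of each of 38 gene lists, and 13 receptor, signalling and erythroid genes. Members, lists and motifs were chosen with earlier results of these data known. Alternatives changed the arrays fitted, the variance prior, the normalization, the filter and the probe sets, and left out single arrays; list medians without single arrays were added after seeing the data.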

Additional observations from a re-analysis of the deposited data

Results flagged for a closer look

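The change with IL-6 differed between D2 and D1, by the limma test of the difference itself, for 26 of the genes named by the rule. Over all 19572 probe sets, 232 passed that test (1.19%). The named genes were chosen in part by their D1 changes, which enter the same difference. The 26 are therefore a list and not a measure of how common such differences are. Values are the log2 change at D2 minus that at D1, and groups of 2 arrays are too small for a check for single outlying samples. For Slc2a1, whose D2 arrays lay near the top of the signal scale, the difference was -1.63, and for Il4ra it was -1.89. All others were more positive at D2, as were 229 of the 232 over all probe sets. Of the genes that passed at D1, Axl differed by 4.26, Hp by 3.85 and Spint1 by 2.50. Both D2 groups of Axl and the D2-Control arrays of Hp and Spint1 were near background, so these sizes depend on values under it.

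Genes of granules and monocytes with the widest differences were Mmp8 (6.52, adjusted p = 0.000379), Ms4a6d (4.94) and Tgfbi (4.68), followed by Wfdc21 (3.72), Ctsc (3.02), F13a1 (2.61) and Fcgr1 (2.59). Mmp8 had D2 means of 6.46 without and 15.01 with IL-6, and a D1 change of 2.04 that did not pass. Both D2-Control arrays of Mmp8, Ms4a6d, Tgfbi, Wfdc21, Ctsc and F13a1 were near background, so the sizes of their differences depend on values under it. Pkm differed by 4.62 (adjusted p = 0.000251), with D2 means of 7.44 and 13.05. The myeloid transcription factor gene Spi1, which encodes PU.1, differed by 3.99, with D2 means of 9.0 and 13.77.

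Besides Axl, genes with a negative value at D1 and a positive change at D2 were Ccl3, a chemokine (difference 3.90), Nlrp3 (3.61), H2-Ab1 (3.12), Sh2d1b1 (3.05) and Adgre1, the macrophage marker F4/80 (2.66). None of these 5 passed at D1, and all 5 passed at D2. Nlrp3 was near background in both D2 groups (4.40 and 4.17 against 6.96 and 7.08) and in D1-IL6. Neither its change at D2 nor its difference is therefore a measured size. Both D2-Control arrays of Ccl3, Sh2d1b1 and Adgre1 were near background too. Cd48 differed by 4.25, Ifitm1 by 3.98, Atp8b4 by 3.85, Sting1 by 2.84, Rel by 2.54, Il6st by 2.43 and Ifitm3 by 1.60. Il6st had D2 means of 7.83 without IL-6 and 10.84 with it. Both D2-Control arrays of Atp8b4, Sting1 and Rel were near background.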

How the results depend on the processing

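The D1 count of 10 became 0 with all 20 arrays in 1 limma fit (209 with an unadjusted p under 0.05), 2 without an intensity trend, 6 after quantile normalization and 5 when transcripts without a symbol were tested too. It was 9 with only the 4 arrays (7 of them among the 10), 8 to 12 with a robust prior, median centring or the filter on background, and 2 to 12 when single arrays were left out, where the lone array of a group is assumed to vary like the others. At D2 the count of 648 became 388 with only the 4 D2 arrays and 269 with all 20, and 517 to 567 without single arrays. The 232 differences between D2 and D1 became 54 with all 20 arrays and 118 to 230 without single arrays. No direction of a named gene that had passed was reversed. Ctsc passed without D1-Control replicate 2 (adjusted p = 0.0421), as did Mmp8 (0.0215) and Ms4a3 (0.0269), and with only the 4 arrays Tgfbi (0.0289) and Ifitm1 (0.012). Over gene and setting pairs, 1663 kept their side of the threshold, 56 lost a call, 7 gained one and the value of 1 without a call moved by more than the spread between replicates (Ldlrad4, -0.95 after quantile normalization). At the other background percentiles tried, 4 of the genes that passed were near background in 1 group, as in the report. No paired analysis was possible because the labels give the arrays no shared replicate numbers and tie none to a mouse. Signal over background limits Lcn2, Dmkn, Atp11a and Axl, whose dim group gives only a bound.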

Other observations

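The 2 arrays of a group differed in some of the same genes in both D1 groups. Of 7564 genes above background, 14 differed by more than 2-fold between replicates 1 and 2 in each group, and 12 of these had the same sign in both. They included the calprotectin gene S100a9, at 7.76 and 9.17 in D1-Control and 8.03 and 9.25 in D1-IL6, and its partner S100a8. Mcpt8, a basophil protease gene, read 12.84 and 14.02 in D1-Control and 12.55 and 13.68 in D1-IL6. Ngp, Itgb3, Cd84 and Gpr35 were also among the 12. In these genes replicate 2 was the higher array in both groups for S100a8, S100a9, Ngp and Mcpt8, although the numbers follow only the order of deposit. Over the 7564 genes, the replicate differences of both groups correlated across genes at r = 0.18 (rho 0.17), and genes are not independent replicates.

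Mmp12, a macrophage elastase gene chosen here after its values were seen, read 10.53 and 10.59 in D1-Control and 7.57 and 9.13 in D1-IL6. Its log2 fold change of -2.21 had an adjusted p of 0.739 in limma, and the IL-6 arrays differed from each other by more than the gap between the groups. None of the 2634 transcript probe sets without a symbol passed at D1, and the smallest adjusted p among them was 0.398.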
